A study of Mus musculus with 66 samples.

Results

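The levels and pA sites of 10 extracellular matrix genes of mouse C2C12 myoblasts are described across knock-down of subunits of the PAF complex: *Fn1*, *Tnc*, *Thbs1*, *Thbs2*, *Sparc*, *Postn*, *Fbn1*, *Lox*, *Vcan* and *Timp3*. The members are the rows that carry these gene symbols, which makes 10 of 15856 genes and 33 of 59578 poly(A) (pA) sites in the 3'READS table and 9 of 9999 genes in the RNA-seq table. *Sparc* had no row among the RNA-seq genes. The list was chosen on measured values, namely reads ending in introns of *Fn1* and the low level of *Tnc* after knock-down, so both genes are described without a test. The other 8 were named as matrix genes to set beside them, with earlier results of these data known.

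C2C12 is an immortalised mouse myoblast line. Every group received 50 nM siRNA for 48 h, either the control siRNA (siCtrl) or an siRNA against *Paf1* (siPaf1), *Cdc73* (siCdc73) or *Ski8* (siSki8, the gene listed as *Wdr61*). Each assay had 7 libraries, with siCtrl, siPaf1 and siCdc73 once in each of 2 batches and siSki8 in batch 2 alone. A knock-down with 1 library has no replicate of its own, and its tests assume that it varies like the other groups. Each group is 1 cell line given siRNA, and nothing says that the 2 batches were grown from separate stocks, so p-values measure the spread between these libraries.

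The matrix around a cell is built from fibres and from proteins that tune how cells hold on to them. Fibronectin, which cells assemble through integrins, is one of the earliest fibres laid down, and fibrillin microfibrils carry elastic fibres. Matricellular proteins such as tenascin-C, the thrombospondins, SPARC and periostin do little for tensile strength but change adhesion and growth factor signalling. The PAF complex travels with RNA polymerase II, and a pA site used inside an intron gives a transcript that ends before the full coding sequence.

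RNA-seq libraries held 2796693 to 8160386 reads in genes, and 3'READS libraries held 5302728 to 14340927 poly(A) site supporting (PASS) reads. Levels are given as CPM, the reads of a gene per 1000000 reads of its library, with TMM scaling for gene totals and none for markers or single pA sites. The targeted genes were low in the libraries named for them: *Paf1* was at 20.3 and 31.1 CPM in siPaf1 RNA-seq libraries against 107 and 160 in siCtrl, *Cdc73* at 14.2 and 22.0 in siCdc73 against 109 and 98.4, and *Wdr61* at 5.97 in siSki8 against 49.8 and 129. Of the myoblast markers, *Des*, *Cdh15*, *Vim* and *Myf5* were read in every library, while *Myod1* had 0 to 8 3'READS reads and no RNA-seq row. *Cdh15*, a cadherin of myoblasts, stood at 397 and 641 CPM in the siPaf1 and 328 and 352 in the siCdc73 RNA-seq libraries against 884 and 1030 in siCtrl. *Des* went the other way in siPaf1, at 1510 and 2030 against 780 and 1460 in siCtrl, with 645 and 968 in siCdc73. *Vim* stood at 16900 and 24900 in siPaf1 and 16500 and 24300 in siCdc73 against 17400 and 30900. *Myf5*, a myogenic transcription factor, stood at 59.7 and 48.3 in siPaf1 and 80.1 and 95.5 in siCdc73 against 60.2 and 64.6. *Krt8*, a keratin of epithelia, stood at 18.8 and 54.0 in siCdc73 against 0.156 and 1.03, while *Epcam* did not exceed 0.949 in any RNA-seq library. The part of these differences in the values below was not tested. One 3'READS library, siPaf1 of batch 2, held 271 genes at over 20 times their level in every other library, none of them a member.

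*Fn1* encodes fibronectin, and a larger share of its reads ended in introns in siPaf1 and siCdc73 than in siCtrl, at sites of introns 7, 13 and 26 that had at most 1 read in a siCtrl library. The gene lies at chr1:71632097-71699745 on the minus strand of mm9, and 6 of its 7 pA sites were intronic. Intronic sites took 4.45% of *Fn1* 3'READS reads (95% Wilson interval 3.52 to 5.60) in siCtrl of batch 1 and 1.39% (1.03 to 1.88) in siCtrl of batch 2. The share was 25.6% (23.9 to 27.4) and 45.9% (44.2 to 47.7) in siPaf1, and 73.4% (71.2 to 75.5) and 56.9% (55.6 to 58.2) in siCdc73. In siSki8 it was 1.06% (0.819 to 1.37). All 4 siPaf1 and siCdc73 libraries therefore lay above both siCtrl libraries, and siSki8 lay below both. These intervals cover counting error only, and because the intronic reads chose the list they are a description.

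**Figure D1:**
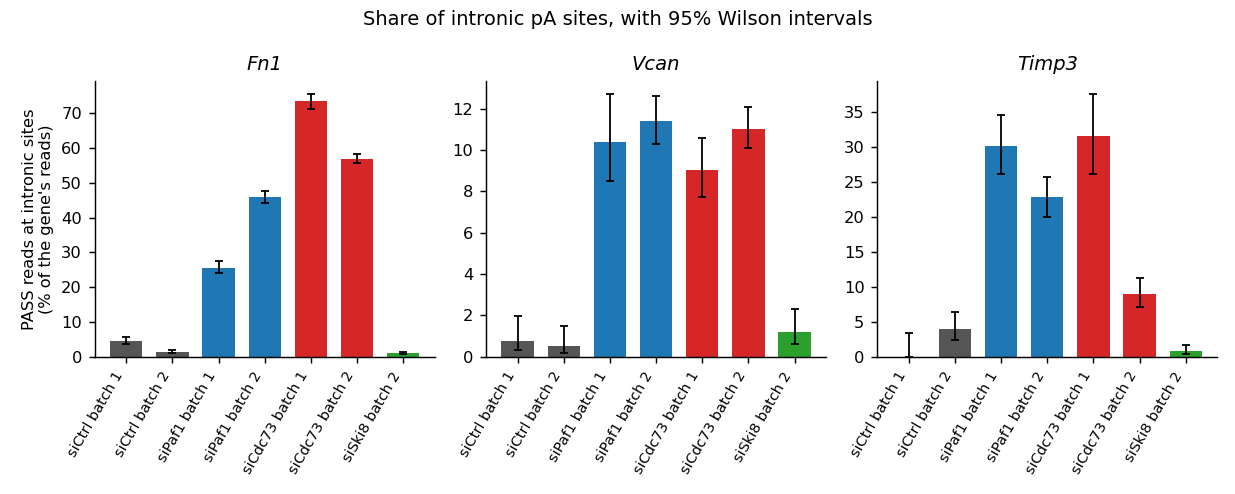
Bars give the share of each gene's PASS reads that ended at intronic pA sites (y axis, % of the gene's reads, a separate scale per gene) in each of the 7 3'READS libraries (x axis), with 95% Wilson intervals of the counting error. The siPaf1 and siCdc73 bars of Fn1 run from 25.6% to 73.4% and those of Vcan from 9.05% to 11.4%, while no siCtrl or siSki8 bar exceeds 4.45%.

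The sequences below are those of the *Fn1* sites that had no read, or 1 read, in both siCtrl libraries, read from mm9 in the direction of transcription. Each window holds 40 bases up to and including the site and 20 after it, and capitals mark the pA signal AATAAA or ATTAAA found within the 40. The third entry spans 3 sites of intron 13 and has its signals, a pair set end to end, ahead of the first.

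Fn1 intron 7, chr1:71688884-71688943, minus strand: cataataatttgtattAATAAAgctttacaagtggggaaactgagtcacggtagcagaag
Fn1 intron 26, chr1:71658685-71658744, minus strand: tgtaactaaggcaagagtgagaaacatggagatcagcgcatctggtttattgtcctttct
Fn1 intron 13, chr1:71678181-71678299, minus strand: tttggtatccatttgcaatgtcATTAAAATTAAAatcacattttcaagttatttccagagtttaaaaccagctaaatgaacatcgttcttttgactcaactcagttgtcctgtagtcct

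With the 7 libraries summed, the most read of these was the site in intron 26 (2750 reads), whose window held neither signal, although in siPaf1 of batch 2 the first site of intron 13 had more reads. One or the other signal stood ahead of 60.8% of all 16766 intronic sites and of 58.6% of the 38550 sites in last exons, searched on the transcribed strand alone. The letters are a description and say nothing of what used the site.

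At the intron 26 site (position 71658705) no read was found among 1529 *Fn1* reads in siCtrl of batch 1 or among 2944 in batch 2, which allows shares of up to 0.196% and 0.102%. The same site had 261 and 359 reads in siPaf1, 596 and 1532 in siCdc73, and 2 in siSki8. Against a limit of 3 reads per control library, the site was at least 82.2-fold higher in siPaf1 of batch 1 and at least 277-fold higher in siCdc73 of batch 1. In batch 2 the bounds were 87.6-fold and 349-fold. A transcript ended there keeps 1416 of the 2477 codons of fibronectin, in the numbering of the annotated transcript with 46 exons.

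Introns 7 and 13, nearer the start of the gene, also held sites read in siPaf1 and siCdc73 but hardly in siCtrl. At the intron 7 site, with 345 codons ahead of it, reads were 0 and 0 in siCtrl, 132 and 201 in siPaf1, 31 and 169 in siCdc73, and 16 in siSki8. The 3 sites of intron 13, with 647 codons ahead of them, lie within 60 bases of each other. The first of the 3 had 0 and 0 reads in siCtrl, 84 and 430 in siPaf1, 150 and 377 in siCdc73, and 2 in siSki8. As a share of *Fn1* reads, the intron 7 site took 5.62% and 6.47% in siPaf1 and 1.91% and 3.13% in siCdc73, whereas the intron 26 site took 11.1% and 11.5% in siPaf1 and 36.8% and 28.3% in siCdc73. The siPaf1 libraries were thus the higher ones at intron 7 and the siCdc73 libraries at intron 26, and at the first site of intron 13 they overlapped.

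The site in intron 41 differed from these in having reads in controls. It lies 2401 bases into an intron of 2428 and had 68 and 40 reads in siCtrl, 94 and 107 in siPaf1, 362 and 203 in siCdc73, and 29 in siSki8. Its share of *Fn1* reads was 22.4% (20.4 to 24.5) in siCdc73 of batch 1 and between 0.539% and 4.45% in the other 6 libraries. One library thus held the only high value at this site, and both siPaf1 shares (4.0% and 3.44%) lay between the siCtrl shares (4.45% and 1.36%).

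**Figure D2:**
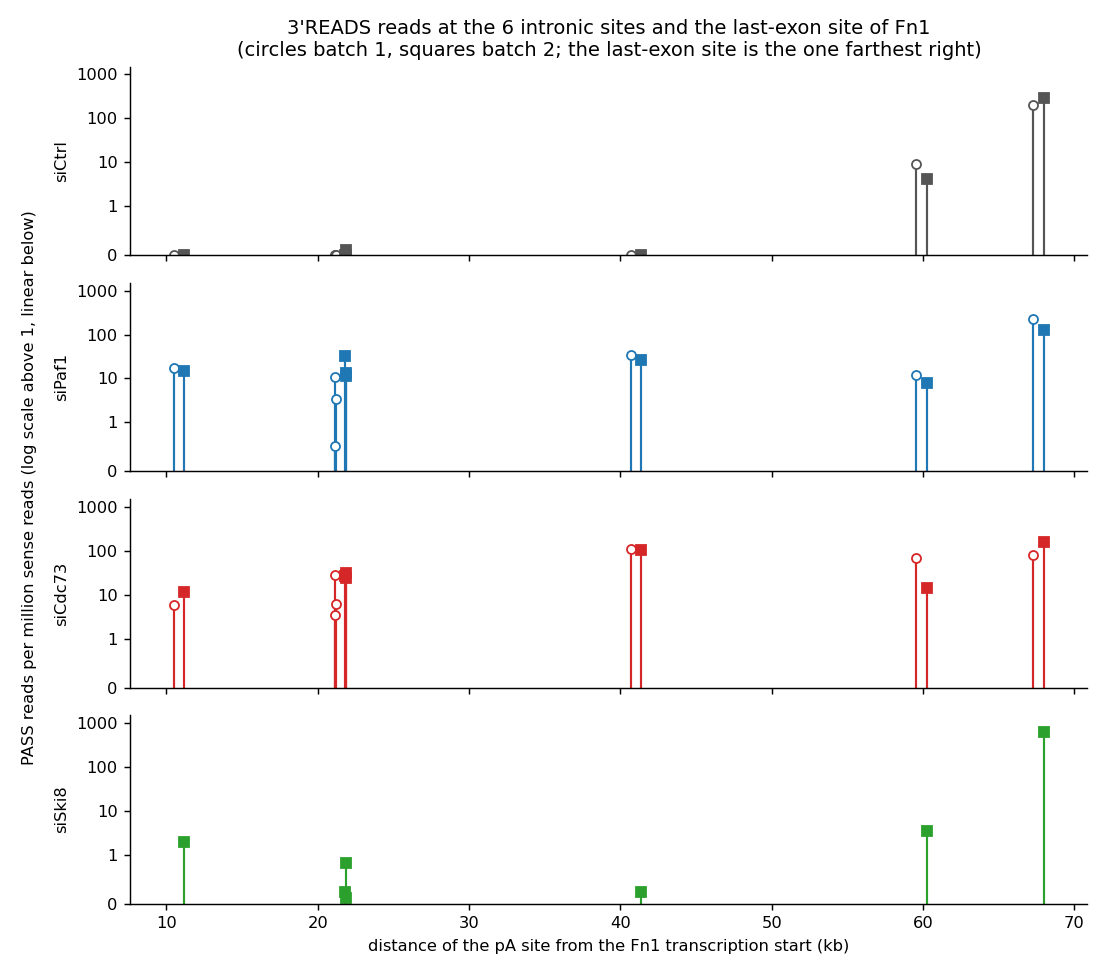
Each stem gives the PASS-read CPM at one pA site of Fn1 (y axis, log scale above 1 and linear below) by its distance from the transcription start in kb (x axis), with the batches drawn slightly apart. In siCtrl only the last intronic site and the last-exon site lie above 1 on this scale, whereas siPaf1 and siCdc73 carry stems at each of the 4 intronic places.

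The last-exon site of *Fn1* marks the end of the full transcript. Without TMM scaling it stood at 198 and 296.5 CPM in siCtrl, 224 and 126 in siPaf1, 81.3 and 163 in siCdc73, and 643 in siSki8. Both siCdc73 values lay below both siCtrl values, while siPaf1 lay above siCtrl in batch 1 and below it in batch 2. Summed over all its sites and with TMM scaling, *Fn1* stood at 229 and 278 CPM in siCtrl and at 352 and 384 in siCdc73. These sums are on another scale than the single site above and cannot be compared with it directly. The fitted log2 differences that follow both use TMM scaling. The direction for siCdc73 thus turned with the sites counted, from a log2 difference of 0.53 over all sites to -0.88 over last-exon sites.

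By RNA-seq, *Fn1* was at 9982 and 10640 CPM in siCtrl, 8959 and 6827 in siPaf1, 7917 and 5965 in siCdc73, and 15840 in siSki8. All 4 siPaf1 and siCdc73 libraries lay below both siCtrl libraries and siSki8 lay above. The log2 differences from siCtrl were -0.39 ± 0.40 (SE) for siPaf1, -0.57 ± 0.40 for siCdc73 and 0.62 ± 0.48 for siSki8.

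*Tnc* encodes tenascin-C, a hexameric glycoprotein of developing, wounded and regenerating tissue. It lies at chr4:63620819-63681759 on the minus strand and had a single pA site, in its last exon, shown because all of its 3'READS reads ended there. Its last 30 bases, with the signal in capitals, read as follows.

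Tnc last exon, chr4:63620822-63620851, minus strand: tgttttttAATAAAagcacagtacttttca

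*Tnc* RNA was at 1891 and 1524 CPM in siCtrl, 672 and 661 in siPaf1, 174 and 90.3 in siCdc73, and 1084 in siSki8. The groups did not overlap, and both siCdc73 libraries lay below both siPaf1 libraries. The log2 differences from siCtrl were -1.36 ± 0.43 (SE) for siPaf1, -3.69 ± 0.47 for siCdc73 and -0.66 ± 0.53 for siSki8. In bulk RNA, less RNA per cell and fewer cells that make it cannot be told apart.

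By 3'READS, the *Tnc* site had 476 and 1051 CPM in siCtrl, 121 and 767 in siPaf1, 50.8 and 95.5 in siCdc73, and 721 in siSki8. Both siCdc73 libraries again lay below all others, with siPaf1 of batch 1 the next above them. The siPaf1 libraries differed from siCtrl of their own batch by -1.98 on the log2 scale in batch 1 and by -0.46 in batch 2. The fitted log2 difference of -0.78 became -2.66 without siPaf1 of batch 2, the library that stands apart, and 0.00 without siPaf1 of batch 1.

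**Figure D3:**
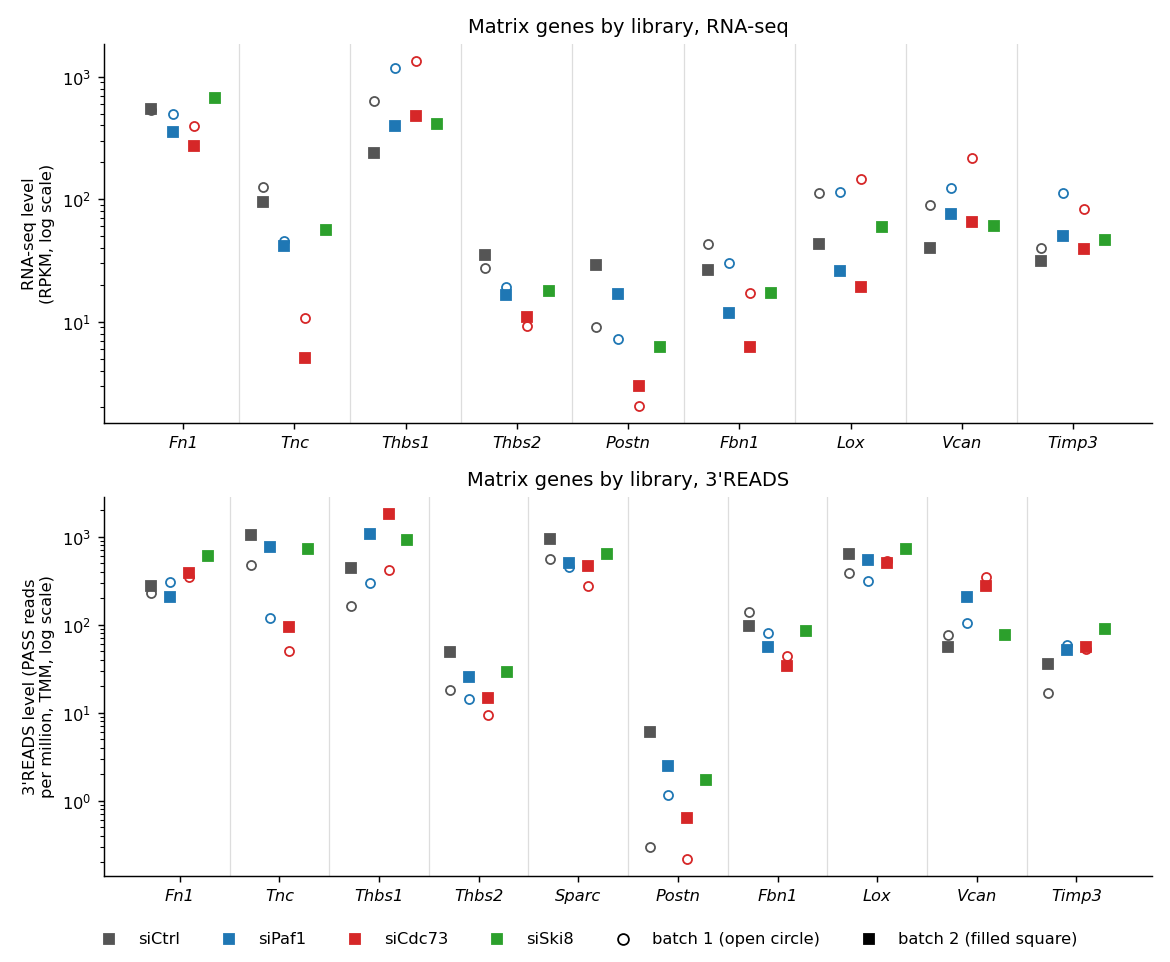
Each point is one library, coloured by siRNA, with RNA-seq in RPKM above and 3'READS in TMM-scaled PASS-read CPM below (both y axes on log scales) for each member (x axis). Tnc in siCdc73 sits apart from the other groups in RNA-seq, while the points of Thbs1, Postn, Lox and Vcan separate by batch as well as by siRNA.

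In control cells the members differed widely in level per length. The mean RPKM (reads scaled to transcript length and library depth) of the siCtrl libraries was 542 for *Fn1*, 438 for *Thbs1*, 111 for *Tnc*, 78.0 for *Lox*, 64.6 for *Vcan*, 35.9 for *Timp3*, 34.9 for *Fbn1*, 31.4 for *Thbs2* and 19.0 for *Postn*. Neighbours in this order overlapped between their siCtrl libraries except *Thbs1* (638 and 238) and *Tnc* (126 and 95.8). The place of *Vcan* depends on its transcript, since its 5 listed transcripts gave means of 7.69 to 64.6 RPKM.

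Across the 8 tested members, both directions occurred. In the fit with groups alone, none of the 6521 RNA-seq genes tested passed an adjusted p of 0.05 in any comparison (0.0%), although 572 were higher and 584 lower in siPaf1 at an unadjusted p under 0.05 and DESeq2 called 390. In siCdc73 these counts were 648, 729 and 550, and in siSki8 160, 201 and 5. With the batch added as a block, 3 of the 7 members tested by RNA-seq rose in siPaf1 beside 16.3% of all genes, and 2 fell beside 16.2%. In siCdc73, 3 rose beside 19.4% and 3 fell beside 20.5%. In siSki8, 3 rose beside 2.93% and 1 fell beside 2.5%. The median log2 difference of these 7 was -0.40, -0.23 and 0.87 in turn, against 0.02, -0.02 and 0.02 over all genes. With groups alone it was -0.17, 0.18 and -0.06, so the siCdc73 and siSki8 medians changed sign, and that of siSki8 rests on 1 library. By 3'READS with the block the medians of the 8 members were -0.26, -0.46 and -0.0, against 0.08, -0.02 and -0.05 over all genes. The calls below are those with the block unless stated otherwise, and each call of a member is given with its adjusted p with groups alone.

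By 3'READS, again no gene of 12579 passed in the fit with groups alone (0.0%), with 870 higher and 1059 lower in siCdc73 at an unadjusted p under 0.05 and 711 called by DESeq2. With the block, 3 of 8 members rose in siPaf1 beside 9.74% of all genes, and none fell beside 9.08%, although 3 were lower at an unadjusted p under 0.05. In siCdc73, 3 rose beside 10.8% and 3 fell beside 11.8%. In siSki8, where 0.0795% of genes rose and 0.0715% fell, no member passed and 2 were higher at an unadjusted p under 0.05.

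**Figure D4:**
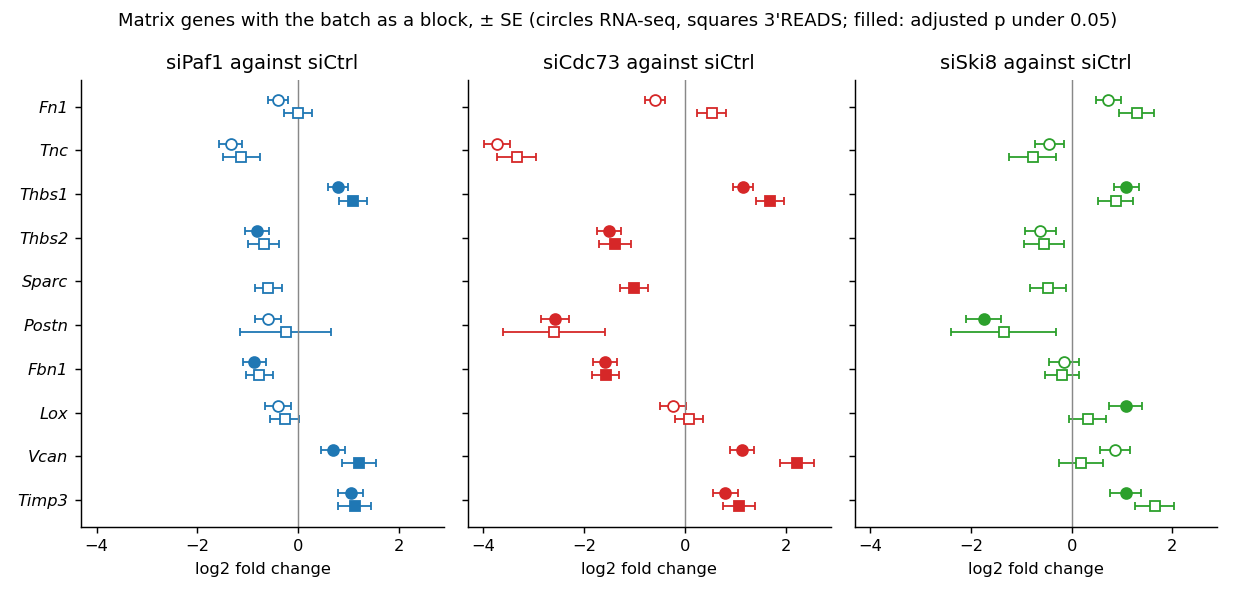
Points give the log2 difference from siCtrl with its SE (x axis) for each member (y axis), fitted with the batch term, as circles for RNA-seq and squares for 3'READS. Filled points passed an adjusted p of 0.05, and Fn1 and Tnc are open because they were not tested. In siCdc73, Thbs1, Vcan and Timp3 lie to the right of 0 in both assays and Thbs2 and Fbn1 to the left.

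*Thbs1* encodes thrombospondin-1, which binds cells through CD47 and integrins and can activate latent TGF-beta. It rose in both assays and in both siPaf1 and siCdc73. Its RNA-seq level was 5578 and 2199 CPM in siCtrl of batches 1 and 2, 10040 and 3649 in siPaf1, 12570 and 4882 in siCdc73, and 4595 in siSki8 of batch 2. The groups overlapped across batches, but within each batch every knock-down library lay above its control. The log2 difference was 0.79 ± 0.20 (SE) in siPaf1 (adjusted p = 0.00285, and 0.63 with groups alone) and 1.16 ± 0.20 in siCdc73 (3.04e-05, and 0.392).

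In siSki8 *Thbs1* RNA differed from siCtrl by 1.09 ± 0.25 (adjusted p = 0.00910), a call lost without either siCdc73 library (0.0542 and 0.0638), and with groups alone the difference was 0.24 ± 0.87 (0.956). By 3'READS *Thbs1* stood at 163 and 439.6 CPM in siCtrl, 302 and 1090 in siPaf1, 415 and 1807 in siCdc73, and 923 in siSki8. The log2 difference was 1.09 ± 0.28 in siPaf1 (adjusted p = 0.0120, and 0.601 with groups alone) and 1.70 ± 0.28 in siCdc73 (0.000670, and 0.395). The siPaf1 call was lost without siCtrl of batch 2 (0.320), and siSki8 did not pass (0.88 ± 0.35, adjusted p = 0.327). Batches 1 and 2 ranked oppositely in the 2 assays for this gene, with RNA-seq higher in batch 1 and 3'READS higher in batch 2.

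*Thbs2*, which encodes the related trimer thrombospondin-2, moved opposite to *Thbs1*. Its RNA-seq level was 241 and 326 CPM in siCtrl, 163 and 153 in siPaf1, 86.4 and 112 in siCdc73, and 198 in siSki8. None of the groups overlapped. It fell in both siPaf1 and siCdc73, by a log2 difference of -0.82 ± 0.24 (adjusted p = 0.00799, and 0.264 with groups alone) and -1.51 ± 0.24 (9.40e-06, and 0.0822), the siCdc73 difference being called by DESeq2 with groups alone too (0.00956). The siPaf1 call was lost without siCtrl of batch 2 (0.191) or siPaf1 of batch 2 (0.0604). In siSki8 the difference was -0.62 ± 0.30 (0.238).

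By 3'READS *Thbs2* was at 18.0 and 49.4 CPM in siCtrl, 14.3 and 25.3 in siPaf1, 9.55 and 14.7 in siCdc73, and 29.2 in siSki8. It fell in siCdc73, by a log2 difference of -1.38 ± 0.32 (adjusted p = 0.00618, and 0.316 with groups alone), a call lost without siCtrl of batch 2 (0.19) or siCdc73 of batch 2 (0.115). The siPaf1 difference of -0.68 ± 0.31 did not pass (0.134).

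*Sparc* encodes osteonectin, a collagen- and calcium-binding matricellular protein. It had 1 pA site, with 559 and 935 CPM in siCtrl, 452 and 501 in siPaf1, 277 and 464 in siCdc73, and 634 in siSki8. Both siPaf1 and both siCdc73 libraries lay below both siCtrl libraries. It fell in siCdc73, by a log2 difference of -1.01 ± 0.28 (adjusted p = 0.0152, and 0.367 with groups alone), a call lost without siCtrl of batch 2 (0.210) or siCdc73 of batch 1 (0.15). The siPaf1 difference was -0.59 ± 0.27 (0.143) and that of siSki8 -0.47 ± 0.35 (0.686).

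*Postn* encodes periostin, which binds collagen, fibronectin and tenascin-C. Its RNA-seq level was 54.9 and 186 CPM in siCtrl, 42.9 and 106 in siPaf1, 13.3 and 21.4 in siCdc73, and 48.2 in siSki8. Both siCdc73 libraries lay below all the others, and batch 2 lay above batch 1 in every group that had both. It fell in both siCdc73 and siSki8, by a log2 difference of -2.58 ± 0.28 (adjusted p = 3.72e-08, and 0.103 with groups alone, or 0.00278 by DESeq2) and -1.74 ± 0.35 (0.00273, and 0.782 with groups alone), the latter not without siCtrl of batch 2 (0.205). The siPaf1 difference of -0.60 ± 0.26 did not pass (0.0723). By 3'READS *Postn* had 1 to 64 reads in a library, and no comparison passed at this depth, with -2.60 ± 1.01 in siCdc73 (0.0764).

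*Fbn1* encodes fibrillin-1, the backbone of microfibrils. Its RNA-seq level was 927 and 604 CPM in siCtrl, 639 and 267 in siPaf1, 399 and 156 in siCdc73, and 470.1 in siSki8. In each batch the order ran from siCtrl through siPaf1 to siCdc73, with siSki8 between siCtrl and siPaf1 of batch 2. It fell in both siPaf1 and siCdc73, by a log2 difference of -0.87 ± 0.23 (adjusted p = 0.00444, and 0.582 with groups alone) and -1.59 ± 0.24 (3.75e-06, and 0.228). The siPaf1 call was lost without siCtrl of batch 2 (0.291).

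By 3'READS *Fbn1* stood at 138 and 95.9 CPM in siCtrl, 80.5 and 56.3 in siPaf1, 43.9 and 34.1 in siCdc73, and 85.6 in siSki8. The 3 replicated groups did not overlap. It fell in siCdc73, by a log2 difference of -1.57 ± 0.27 (adjusted p = 0.000938, and 0.185 with groups alone), and DESeq2 with groups alone called it too (0.0222). In siPaf1 the difference was -0.77 ± 0.27 (0.0521), just above the threshold.

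*Lox* encodes lysyl oxidase, which crosslinks collagen and elastin. Its RNA-seq level was 348 and 139 CPM in siCtrl, 347 and 84.5 in siPaf1, 481 and 69.9 in siCdc73, and 234 in siSki8. In siCdc73 the batches moved opposite ways, up in batch 1 and down in batch 2. Neither siPaf1 (-0.40 ± 0.26, adjusted p = 0.258) nor siCdc73 (-0.23 ± 0.26, 0.503) passed. In siSki8 it rose by 1.07 ± 0.32 (0.0446), a call lost without siCtrl of batch 1 (0.353) or either siCdc73 library (0.167 and 0.158), and with groups alone the value was -0.06 ± 1.18 (0.997). By 3'READS *Lox* lay between 315 and 734 CPM in all 7 libraries, and no comparison passed.

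*Vcan* encodes versican, a large proteoglycan that binds hyaluronan. Its level rose in both assays in siPaf1 and siCdc73, and an intronic site near its start was used more. RNA-seq CPM was 435 and 208 in siCtrl, 587 and 392 in siPaf1, 1139 and 373 in siCdc73, and 377 in siSki8. Within each batch the knock-downs lay above siCtrl. The log2 difference was 0.69 ± 0.24 in siPaf1 (adjusted p = 0.0257, and 0.685 with groups alone), 1.14 ± 0.24 in siCdc73 (0.000349, and 0.298) and 0.87 ± 0.30 in siSki8, which did not pass (0.0836).

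The siPaf1 call on *Vcan* RNA was lost without either siCtrl library (adjusted p = 0.111 and 0.143), without siPaf1 of batch 2 (0.343) and without either siCdc73 library (0.0523 and 0.0630). The siCdc73 call was lost without siCdc73 of batch 1 (0.130). By 3'READS *Vcan* stood at 77.6 and 55.7 CPM in siCtrl, 105 and 205 in siPaf1, 346 and 277 in siCdc73, and 77.1 in siSki8. The 3 replicated groups did not overlap. The log2 difference was 2.22 ± 0.34 in siCdc73 (adjusted p = 0.000425, and 0.156 with groups alone), also called by DESeq2 with groups alone (0.000944), and 1.21 ± 0.34 in siPaf1 (0.0208, and 0.341), the latter lost without siCtrl of batch 2 (0.353) or siPaf1 of batch 2 (0.346).

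The intronic site of *Vcan* lies in intron 3, with 148 of 3354 codons ahead of it. Its window is shown because the site has few control reads and a signal, in capitals, in the usual place.

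Vcan intron 3, chr13:89864657-89864716, minus strand: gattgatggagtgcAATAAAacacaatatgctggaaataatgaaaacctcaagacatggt

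It had 4 of 517 *Vcan* reads in siCtrl of batch 1 and 3 of 589 in batch 2. In siPaf1 it had 85 of 816 (10.4%, 95% Wilson interval 8.5 to 12.7) and 354 of 3104 (11.4%, 10.3 to 12.6). In siCdc73 it had 144 of 1591 (9.05%, 7.74 to 10.6) and 430 of 3899 (11%, 10.1 to 12.1), and in siSki8 8 of 678 (1.18%, 0.599 to 2.31). All 4 siPaf1 and siCdc73 shares lay above those of siCtrl and siSki8, and close to one another.

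The test of reads upstream against reads of the last exon (CDS-APA) covered 1766 genes, of which 2.21% rose in siPaf1 and 4.02% in siCdc73 with groups alone. Of the 2 members tested, *Vcan* passed in both, with a log2 ratio change of 4.18 ± 0.74 (SE) in siPaf1 (adjusted p = 0.0286) and 4.04 ± 0.74 in siCdc73 (0.0210). The median change over all tested genes was 0.72 and 0.98. With the block, 18.9% and 20.4% of genes rose and *Vcan* passed in both (1.003e-08 and 2.734e-08). In siSki8 0.0566% of genes rose, and neither tested member passed or had an unadjusted p under 0.05. With groups alone the *Vcan* calls were lost without either siCtrl library (0.0965 and 0.173 in siPaf1, 0.0841 and 0.157 in siCdc73), without siPaf1 of batch 2 (0.0948) and without either siCdc73 library (0.107 and 0.117). The site entered the test with 9.18% of *Vcan* reads over the summed libraries, where 5% was needed. Its siCtrl shares were 0.774% and 0.509%, so siPaf1 and siCdc73 reads admitted it, and the *Vcan* calls are a description. Without the 5% filter they did not pass with groups alone (0.0578 in siPaf1 and 0.0756 in siCdc73).

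Among the *Vcan* transcripts listed for RNA-seq, the shortest took a share of reads that was chosen for description after its values were seen. Set against the reads of the transcript used for *Vcan*, it had 7.64% and 6.38% in siCtrl, 10.8% and 17.5% in siPaf1, 12.3% and 18.7% in siCdc73, and 4.36% in siSki8. Its ratio was thus higher in all 4 siPaf1 and siCdc73 libraries than in siCtrl, and lowest in siSki8. Another listed transcript had 26.5% and 35.6% in siCtrl, 27.7% and 41.9% in siPaf1, 27.8% and 50.0% in siCdc73, and 34.1% in siSki8. That ratio was higher in siPaf1 and siCdc73 than in siCtrl of the same batch, but the groups overlapped across batches.

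*Timp3* encodes a matrix-bound inhibitor of metalloproteinases. It rose in both assays in siPaf1 and siCdc73, at RNA-seq levels of 63.7 and 52.6 CPM in siCtrl, 173 and 82.4 in siPaf1, 141 and 73.1 in siCdc73, and 94.5 in siSki8. All the knock-down libraries lay above both siCtrl libraries. The log2 difference was 1.05 ± 0.25 in siPaf1 (adjusted p = 0.00190, and 0.293 with groups alone), 0.80 ± 0.25 in siCdc73 (0.0116, and 0.347) and 1.07 ± 0.31 in siSki8 (0.0378, and 0.789, where the difference was 0.70 ± 0.59).

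Without siCtrl of batch 1 all 3 *Timp3* calls were lost (adjusted p = 0.181, 0.358 and 0.314), as were those of siCdc73 and siSki8 without siCdc73 of batch 1 (0.163 and 0.0960) or of batch 2 (0.0600 and 0.0884). By 3'READS *Timp3* stood at 16.7 and 36.1 CPM in siCtrl, 59.0 and 51.7 in siPaf1, 53.0 and 55.3 in siCdc73, and 89.9 in siSki8. Here too siCtrl was lowest. The log2 difference was 1.12 ± 0.33 in siPaf1 (0.0260, and 0.383 with groups alone) and 1.07 ± 0.33 in siCdc73 (0.0268, and 0.357), both lost without siCtrl of batch 1 (0.418 and 0.443), the first also without siPaf1 of batch 1 (0.0773) and the second without siCdc73 of batch 1 (0.111). The siSki8 difference of 1.65 ± 0.39 did not pass (0.0985).

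*Timp3* had 2 intronic sites, both in its long intron 1 with 40 of 211 codons ahead of them. The one nearer the start lies 3 bases from the end of an annotated short transcript and held 60 reads over the 7 libraries, 45 of them in siPaf1 of batch 1. The window of the other, which held 424 reads, is shown with AATAAA in capitals. That signal starts 37 bases before the site, near the edge of the 40 searched.

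Timp3 intron 1, chr10:85790789-85790848, plus strand: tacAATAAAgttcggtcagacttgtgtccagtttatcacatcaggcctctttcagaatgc

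Both sites together took 0 of 111 *Timp3* reads in siCtrl of batch 1, which allows a share of up to 2.70%, and 3.93% (2.39 to 6.38) in batch 2. The share was 30.2% (26.2 to 34.6) and 22.8% (20.0 to 25.8) in siPaf1, 31.6% (26.1 to 37.6) and 8.99% (7.17 to 11.2) in siCdc73, and 0.759% (0.349 to 1.65) in siSki8. All 4 siPaf1 and siCdc73 values lay above siCtrl, although siCdc73 of batch 2 lay far below the other 3. The CDS-APA change with the block was 3.43 ± 0.70 in siPaf1 (adjusted p = 1.898e-05) and 2.98 ± 0.71 in siCdc73 (0.000331), whereas with groups alone *Timp3* did not pass (0.125 and 0.152). The siCdc73 call was lost without siCtrl of batch 1 (0.0977) or siCdc73 of batch 1 (0.166).

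The other 7 members had no intronic pA site. Of the 33 sites, 24 lay in last exons, none in internal exons and none upstream in antisense direction. For genes with several last-exon sites, the 2 most read ones were compared as proximal and distal (3'UTR-APA), which could be tested for 5 members. With groups alone none of 4567 genes passed (0.0%), with an unadjusted p under 0.05 for 169 higher and 60 lower genes in siPaf1, 165 and 27 in siCdc73, and 53 and 5 in siSki8. Once the batch was a term, 2 of 5 members shifted to the proximal site in siPaf1 beside 5.1% of genes and 2 in siCdc73 beside 3.88%, while none passed in siSki8 beside 0.307%, with 1 higher at an unadjusted p under 0.05.

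**Figure D5:**
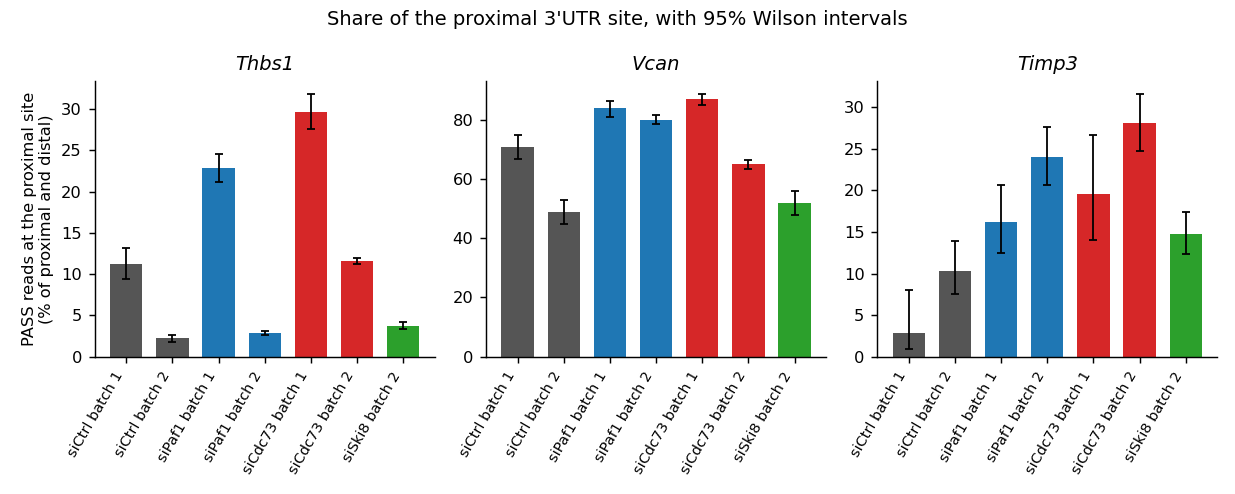
Bars give the proximal site's share of the reads at the 2 compared last-exon sites (y axis, %, a separate scale per gene) in each 3'READS library (x axis), with 95% Wilson intervals. For Timp3 all 4 siPaf1 and siCdc73 bars, from 16.2% to 28.1%, lie above both siCtrl bars, and so does the siSki8 bar at 14.7%. For Thbs1 the bars separate by batch as well.

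The proximal site of *Timp3*, 2462 bases ahead of the distal one, took 2.83% and 10.3% in siCtrl, 16.2% and 24.0% in siPaf1, 19.6% and 28.1% in siCdc73, and 14.7% in siSki8. Its log2 ratio change was 1.83 ± 0.59 in siPaf1 (adjusted p = 0.0381, and 0.960 with groups alone) and 2.14 ± 0.60 in siCdc73 (0.0157, and 1.0). Each call was lost without any one siCtrl library or any one library of the knock-down itself, at adjusted p of 0.101 to 0.411.

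For *Vcan*, with 614 bases between the sites, the proximal share was 70.9% and 48.8% in siCtrl, 83.8% and 79.9% in siPaf1, 87.0% and 64.9% in siCdc73, and 51.9% in siSki8. The siPaf1 change of 1.59 ± 0.44 passed (adjusted p = 0.0121, and 0.980 with groups alone) and was lost without either siCtrl library (0.161 and 0.523) or siPaf1 of batch 2 (0.619). The siCdc73 change of 1.2 ± 0.44 did not pass (0.107).

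For *Thbs1*, with 499 bases between the sites, the proximal share was 11.2% and 2.20% in siCtrl, 22.8% and 2.83% in siPaf1, 29.6% and 11.6% in siCdc73, and 3.72% in siSki8. In each batch the share was highest in siCdc73. The siCdc73 change of 2.14 ± 0.40 passed (adjusted p = 3.632e-05, and 1.0 with groups alone), not so without siCdc73 of batch 2 (0.101), and that of siPaf1, 0.80 ± 0.39, did not (0.262). *Thbs2* and *Fbn1* were also tested, and neither passed in any comparison.

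Set directly against each other with the block, siPaf1 and siCdc73 differed in 3 of the 7 members tested by RNA-seq, each higher in siPaf1, beside 14.6% of all genes in that direction and 13.6% in the other. *Postn* was higher in siPaf1 by 1.98 ± 0.28 on the log2 scale (adjusted p = 5.969e-06, and 0.305 with groups alone), *Fbn1* by 0.72 ± 0.23 (0.0205, and 0.640) and *Thbs2* by 0.69 ± 0.24 (0.0292, and 0.443). The *Fbn1* call was lost without siPaf1 of batch 1 (0.0562) or either siCdc73 library (0.0903 and 0.425), as was that of *Thbs2* (0.173, 0.330 and 0.199). *Thbs1* (-0.37 ± 0.20, 0.159), *Vcan* (-0.45 ± 0.24, 0.156), *Timp3* (0.25 ± 0.25, 0.489) and *Lox* (-0.16 ± 0.26, 0.679) did not pass.

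Other genes of the matrix were counted in 6 lists of 90 genes, chosen with earlier results of these data known, and 30 were tested by RNA-seq. With the block, 3 of these 30 rose and 10 fell in siPaf1, beside 16.3% and 16.2% of all genes. In siCdc73 2 rose and 16 fell, beside 19.4% and 20.5%, and in siSki8 4 rose and 3 fell, beside 2.93% and 2.5%. With groups alone none passed. Their median log2 difference was -0.36, -0.87 and 0.03, against 0.02, -0.02 and 0.02 over all genes. By 3'READS with the block the medians of the 62 genes tested there were 0.03, -0.48 and -0.23. Over all genes they were 0.08, -0.02 and -0.05. The lower siPaf1 median was thus not repeated by 3'READS. The elastic fibre list, to which fibrillin-1 belongs by function, had 6 of 6 tested genes lower in siCdc73 and 3 lower and 1 higher in siPaf1. The proteoglycan and hyaluronan list had 4 of 6 lower in siCdc73 and none higher, and 2 lower and 1 higher in siPaf1. In siSki8 2 of the 6 elastic fibre genes and 1 of the 6 in the proteoglycan and hyaluronan list were lower. By 3'READS with the block, 7 of 12 elastic fibre genes were lower in siCdc73 but 0 of 8 in the proteoglycan and hyaluronan list. None was higher there in either list. In siPaf1 3 and 2 were lower and 1 in each higher, and in siSki8 none was called.

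The matrix crosslinking list had 2 of 4 lower in siPaf1 and 1 of 4 in siCdc73, the matrix receptors 2 and 3 of 8 lower beside 1 and 1 higher, and the matricellular genes 1 and 1 of 2 lower. The proteases and inhibitors had 1 of 4 lower and 1 higher in siCdc73, and none called in siPaf1. In siSki8 2 matrix receptors, 1 matricellular gene and 1 of the proteases and inhibitors were higher. By 3'READS 62 of the 90 were tested, and with the block 8 rose and 15 fell in siPaf1, beside 9.74% and 9.08% of all genes. In siCdc73 6 rose and 16 fell, beside 10.8% and 11.8%, none passed in siSki8, and with groups alone none passed in any comparison. By list, the matrix receptors had 4 of 16 lower and 2 higher in siPaf1, and 2 lower and 4 higher in siCdc73. The proteases and inhibitors had 3 of 13 higher and none lower in siPaf1, and 1 higher and 2 lower in siCdc73. Crosslinking genes had 5 of 8 lower in siPaf1 and 3 in siCdc73, and the matricellular 1 and 2 of 5 lower beside 1 and 1 higher.

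Of these genes the smallest p-values among the called in siPaf1 belonged to *Fbln1*, a fibulin that binds elastic fibres and fibronectin, and *Cd44*, the hyaluronan receptor, both lower, and to *Sdc2*, a syndecan, and *Dcn*, the small proteoglycan decorin, both higher. *Fbln1*, at 216 and 282 CPM in siCtrl, fell to 74.4 and 64.6 in siPaf1, and *Cd44* from 530.4 and 506 to 158 and 150.0. *Sdc2* rose from 208 and 145.5 to 333 and 408 and *Dcn* from 11.5 and 41.2 to 28.0 and 63.5. In siCdc73 *Sdc1*, another syndecan, fell from 331 and 217 to 68.1 and 33.2 and *Loxl2*, a lysyl oxidase relative, from 166 and 223 to 25.1 and 38.6, while *Plau*, the urokinase protease, rose from 392 and 766 to 1022 and 1963 and *Sdc4* from 435 and 440.6 to 808 and 577. In siSki8 *Itgb1*, an integrin subunit of the fibronectin receptor, rose from 1267 and 1418 to 2885 and *Sdc4* to 779, and *Dcn* and *Fbln5*, an elastin-binding fibulin, fell from 11.5 and 41.2 to 6.40 and from 202 and 163 to 47.2.

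The genes whose RNA-seq pattern was most like that of *Tnc* over the 7 libraries, among 5131 genes averaging 50 reads or more, were *Ssx2ip* (Pearson's r of log2 values = 0.999), *Wdr92* (0.988) and *Clcc1* (0.986). *Ssx2ip* ran from 105 and 99.4 CPM in siCtrl through 76.9 and 73.6 in siPaf1 to 50.3 and 40.5 in siCdc73, with 87.2 in siSki8. Its order of libraries thus matched that of *Tnc* over a narrower range. These correlations describe libraries that share batches and depth, and the genes were picked as the highest of many.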

How the data were processed

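RNA-seq (strand-specific, after removal of ribosomal RNA) and 3'READS, which sequences the 3' ends of polyadenylated RNA, were analysed in C2C12 cells. The authors aligned reads with Bowtie2 to mm9 and deposited counts per pA site and, for RNA-seq, counts over the coding region of each RefSeq transcript, plus RPKM values that the authors computed for RNA-seq. Deposited columns without a matching sample numbered 0. ChIP-seq samples were not analysed here. The members and lists were chosen with earlier results of these data known.

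For each gene the RNA-seq transcript with the highest mean count was kept, and sense-strand pA sites were summed. Genes were tested with edgeR 4.0.16 (quasi-likelihood test, TMM scaling, filterByExpr) and Benjamini-Hochberg adjustment over all genes, called at 0.05, with groups alone, since the study's methods give no batch term. Isoform ratios were tested as an interaction of isoform and knock-down, for genes averaging 20 reads or more. Sites needed at least 5% of a gene's reads with the 7 libraries summed, so knock-down reads could admit a site. The labels give the replicate number as a batch, and differences between batches correlated across genes (r of 0.62 to 0.748 in RNA-seq, 0.432 to 0.61 in 3'READS), so the batch pairs the libraries and was also fitted as a block. Other matrix genes are named as those with the smallest p among genes called with the block, at most 2 per direction and knock-down. DESeq2 1.42.0 was an alternative. Scripts were tested on simulated data. Sites were annotated with GENCODE vM1, whose genome holds all 59578 positions. SE is the standard error of a log2 difference, and depth limits each share as its interval gives.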

Additional observations from a re-analysis of the deposited data

Results flagged for a closer look

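Some members moved opposite ways in the 2 batches, each by at least 0.3 on the log2 scale against siCtrl of the same batch. The difference between batches was not tested in any of these, since each value rests on 1 library against 1. *Lox* in siCdc73 differed by 0.47 in batch 1 and -0.99 in batch 2 by RNA-seq, and by 0.45 and -0.33 by 3'READS. *Fn1* in siPaf1 differed by 0.40 in batch 1 and -0.44 in batch 2 by 3'READS over all its sites. *Postn* in siPaf1 differed by 1.95 in batch 1 and -1.27 in batch 2 by 3'READS, from 2 against 9 reads in batch 1.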

How the results depend on the processing

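With the replicate block, that is the batch as a term, RNA-seq called 2122 genes in siPaf1, 2601 in siCdc73, 354 in siSki8 and 1841 between siPaf1 and siCdc73, where groups alone called 0. The same term gave 2367, 2832 and 19 genes by 3'READS against 0, 406, 409 and 2 by CDS-APA against 42, 73 and 0, and 310, 196 and 14 by 3'UTR-APA against 0. The block also turned the direction of *Lox* RNA to -0.23 in siCdc73 and 1.07 in siSki8, and of the 3'UTR-APA change in siSki8 to 0.79 for *Thbs1* and 0.10 for *Vcan*. Among the 73 values of the tested members it left 37 on the same side of 0 and of the threshold, brought 32 past the threshold and turned 4.

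DESeq2 called 390, 550, 5 and 163 genes by RNA-seq, in the same order, and 496 and 711 by 3'READS in siPaf1 and siCdc73. Without a filter on low counts edgeR called 149, 225, 1 and 8 by RNA-seq and 20 and 22 by 3'READS, and without the 5% filter on sites CDS-APA called 36 in siCdc73, while *Vcan* lost its calls there (adjusted p = 0.0578 in siPaf1 and 0.0756 in siCdc73). Scaling by library size alone turned the siSki8 RNA-seq values of *Thbs1* to -0.13 and *Vcan* to -0.14, and the siCdc73 3'READS value of *Lox* to -0.11. Of 302 values of the tested members under settings other than the block or a library left out, 292 stayed on the same side, and 3 of 70 values of *Fn1* and *Tnc* turned sign. These were all of *Fn1* by 3'READS, which with 3'-most-exon sites alone went from 0.003 to -0.51 in siPaf1 and from 0.53 to -0.88 in siCdc73, and without the filter on low counts to -0.01 in siPaf1.

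Leaving out 1 library in the fit with groups alone gave 0 to 34 called genes by RNA-seq in siPaf1, and 2 to 48 by CDS-APA in siPaf1 and 2 to 111 in siCdc73. Of 438 values of the tested members so obtained 392 stayed on the same side, 7 calls were lost and 39 values turned. Of 84 values of *Fn1* and *Tnc* 6 turned sign, among them *Fn1* by 3'READS in siPaf1 (to -0.31 without siPaf1 of batch 1) and *Tnc* by 3'READS in siSki8 (from -0.083 to 0.60 without siCtrl of batch 2). With the block, 157 of 210 values obtained by leaving out 1 library from a called value stayed past the threshold and 53 did not. With groups alone, the direction of an uncalled value turned in these cases. By RNA-seq in siPaf1, the log2 range was -0.077 to 1.64 for *Thbs1*, -1.49 to 0.43 for *Postn*, -1.51 to 0.64 for *Lox*. By RNA-seq in siCdc73, the log2 range was -1.76 to 1.01 for *Lox*. By RNA-seq in siSki8, the log2 range was -0.28 to 1.03 for *Thbs1*, -0.57 to 0.72 for *Lox*, -0.21 to 0.83 for *Vcan*. By RNA-seq in siPaf1 against siCdc73, the log2 range was -1.25 to 0.46 for *Thbs1*, -0.058 to 1.50 for *Fbn1*, -1.70 to 1.6 for *Lox*, -1.22 to 0.36 for *Vcan*, -0.38 to 0.78 for *Timp3*. By 3'READS in siPaf1, the log2 range was -1.32 to 0.14 for *Thbs2*, -1.70 to 2.57 for *Postn*, -0.70 to 0.13 for *Lox*. By 3'READS in siCdc73, the log2 range was -3.80 to 0.60 for *Postn*, -0.29 to 0.42 for *Lox*. By 3'READS in siSki8, the log2 range was -0.76 to 0.70 for *Thbs2*, -0.56 to 0.18 for *Sparc*, -1.82 to 2.46 for *Postn*, -0.008 to 0.47 for *Vcan*. By CDS-APA in siSki8, the log2 range was -2.31 to 3.50 for *Timp3*. By 3'UTR-APA in siPaf1, the log2 range was -0.87 to 2.47 for *Thbs1*, -0.93 to 0.17 for *Fbn1*. By 3'UTR-APA in siCdc73, the log2 range was -0.72 to 0.47 for *Thbs2*, -0.28 to 0.47 for *Fbn1*. By 3'UTR-APA in siSki8, the log2 range was -1.70 to 0.78 for *Thbs1*, -0.88 to 0.31 for *Thbs2*, -1.17 to 0.18 for *Vcan*. The cause was not tested. With 2 libraries a group, counts of called genes rest on the spread between batches, and genes of few reads such as *Postn* by 3'READS are limited by depth. Leaving out 1 library in the fit with the block was chosen after seeing the data.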
